A study of Mus musculus with 3 samples.

Results

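Genes of meiotic entry, chromosome axis and cohesin were looked up by symbol in a table of transcript models assembled for mouse testis. The 9 genes were Stra8, which marks meiotic entry, the HORMA-domain genes Hormad1 and Hormad2, the meiotic cohesin genes Rec8, Smc1b and Stag3, and the mitotic cohesin genes Rad21, Smc1a and Smc3. All 9 were found, and 14 of the 50081 models in the table carried their symbols. The series held 1 CAGE library (capped 5′ ends) from testes at 10.5 days post partum, 1 CAGE library from adult testes and 1 PAS-Seq library (polyadenylated 3′ ends, read length 100 nt) from adult testes. All 3 came from wild-type C57BL/6J mice, and the labels name total RNA of testes, with no sorting of cells. The table described the series as a whole: it gave positions and exons, with no read count and no level for any library. Depth is therefore unknown, no age or library could be compared with another, the tissue label could not be checked against marker levels, and a model in the table does not measure expression.

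Cohesin is a ring that holds sister chromatids together. Its mitotic form is built from SMC1A, SMC3, a kleisin (RAD21) that closes the ring, and a STAG protein. In mouse germ cells entering meiosis, SMC1B, the kleisin REC8 and STAG3 form meiotic versions of the ring, in which SMC3 is kept. These complexes lie along the chromosome axis, where HORMAD1 and HORMAD2 mark chromosomes that have not yet paired. STRA8 is induced by retinoic acid and acts with MEIOSIN to switch on the meiotic programme.

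Each gene had 1 RefSeq-derived model. A further 5 models under these symbols bore identifiers of the kind the Cufflinks assembler writes and are called CUFF models here: 2 for Hormad2, 2 for Rad21 and 1 for Smc1b. Positions are in mm9, counted from 1. Starts or ends of a gene were counted as separate when more than 50 nt apart.

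Stra8 had 1 model (NM_009292), on the plus strand of chromosome 6 from 34870960 to 34889342. It had 9 exons and a spliced length of 1455 nt, at the 29.3rd percentile of 22421 RefSeq genes of the table. Its first exon was 95 nt and its longest intron, 6664 bp, was the first. The last exon was 241 nt, at the 10.8th percentile. Stra8 stood apart from its neighbours. Upstream, Wdr91 lay on the other strand with 10128 bp between the RefSeq models, and downstream 2010107G12Rik, coded XX, pointed towards it from 5952 bp away.

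The 250 bases before the RefSeq start of Stra8 are shown because retinoic acid acts on this gene. Capitals mark AGGTCA, the letters of a single element of the kind that retinoic acid receptor sites hold in pairs, and CCAAT or its reverse ATTGG, the letters of the CCAAT box. The sequence is RefSeq's in GRCm38.p6, chr6:34920698-34920947, plus strand, and its coordinates cannot be set against those in mm9.
Stra8: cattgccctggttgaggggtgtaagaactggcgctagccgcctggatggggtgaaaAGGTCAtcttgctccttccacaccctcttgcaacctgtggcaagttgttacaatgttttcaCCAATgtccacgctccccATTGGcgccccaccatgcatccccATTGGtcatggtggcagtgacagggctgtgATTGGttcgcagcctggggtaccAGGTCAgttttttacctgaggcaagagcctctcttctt
AGGTCA began 194 and 38 bases before the start. CCAAT letters occurred at 4 places, from 133 to 57 bases before the start. AGGTCA was in 14% of 32851 RefSeq windows of the same length and CCAAT in 33.8%, on either strand. A match is a description of letters and not a bound site.

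Hormad1 had 1 model under its own symbol (NM_026489), on the plus strand of chromosome 3 from 95363599 to 95391593, with 16 exons and 1511 nt. Upstream, Ctss lay 3273 bp away on the same strand. The next gene downstream, Golph3l, lay 1262 bp downstream on the same strand, and 3 CUFF models named Golph3l overlapped the exons of Hormad1. CUFF.16852.1 and CUFF.16852.2 began 30 nt upstream of the RefSeq start of Hormad1 and shared no intron with Golph3l. All 10 introns of CUFF.16852.1 and 13 of the 14 introns of CUFF.16852.2 were introns of the Hormad1 RefSeq model. By their introns these 2 models matched Hormad1 and not the gene they were named for, and a count by symbol does not include them.

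The models named Golph3l differed from the Hormad1 RefSeq model at their ends and in left-out exons. CUFF.16852.1 stopped inside exon 11, 7617 nt before the RefSeq end, with 50 nt of that exon in place of 67 nt. CUFF.16852.2 left out exon 6, of 21 nt, a multiple of 3. It ended 73 nt beyond the RefSeq end, with a last exon of 364 nt against 291 nt. CUFF.16852.4 began just before exon 14, with 81 nt against 75 nt, skipped exon 15 of 55 nt, and ran in 1 exon of 1754 nt from the start of the last Hormad1 exon to the end of the first Golph3l exon. Its other 4 introns were those of Golph3l. Introns shared with a CUFF model named for another gene were found for 1 of the 9 genes (11.1%), against 288 of 22421 RefSeq genes (1.28%) and 1.75% of the RefSeq genes coded other than XX. This count was defined after the Hormad1 models had been seen, so the 1 gene restates that case and the shares only say how often it occurs in the table.

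**Figure D1:**
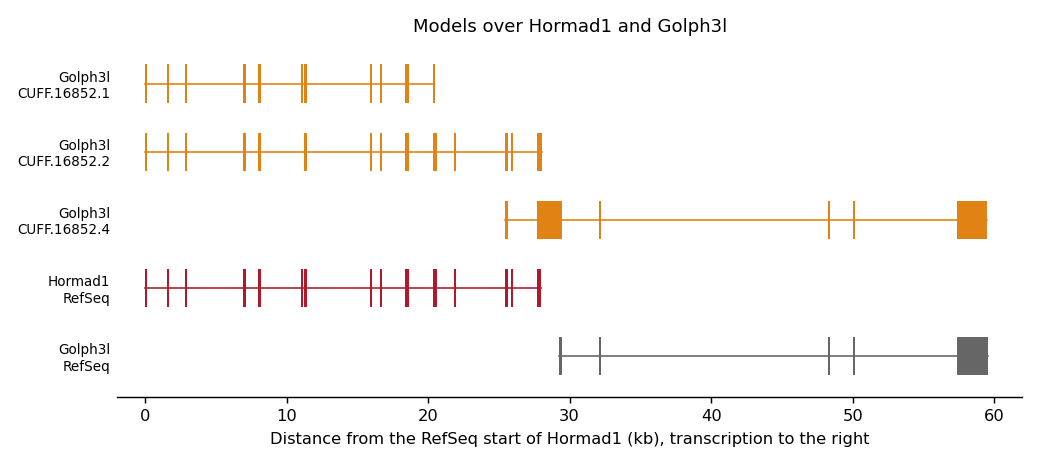
Exons (blocks) and introns (lines) of the models over Hormad1 and Golph3l, in kb from the RefSeq start of Hormad1. CUFF models are orange, the RefSeq model of Hormad1 is red and the longest RefSeq model of Golph3l is grey. CUFF.16852.1 and CUFF.16852.2 follow Hormad1 exons, and CUFF.16852.4 joins the last Hormad1 exon to Golph3l.

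The 250 bases before the Hormad1 start are shown because they held the letters of an E2F site and of E-boxes. In mouse somatic and stem cells, E2F6 and the MAX partner MGA are known to keep meiotic genes silent. Capitals mark GGCGGGAA (E2F), CACGTG (E-box) and AGGTCA, in RefSeq's GRCm38.p6 at chr3:95559427-95559676, plus strand, the first of 2 overlapping windows listed for the gene.
Hormad1: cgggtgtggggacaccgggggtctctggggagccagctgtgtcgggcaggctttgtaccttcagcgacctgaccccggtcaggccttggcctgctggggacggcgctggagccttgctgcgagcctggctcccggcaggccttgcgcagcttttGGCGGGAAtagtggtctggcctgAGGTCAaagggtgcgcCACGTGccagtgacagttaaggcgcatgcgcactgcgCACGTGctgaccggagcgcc
GGCGGGAA lay 96 to 89 bases before the start and was in 1.86% of windows. CACGTG lay at 57 and 20 bases before the start and was in 6.02% of windows. CUFF.16852.1 and CUFF.16852.2 began 30 nt upstream of the RefSeq start, so the nearer CACGTG may lie within their first exon. AGGTCA lay at 73 bases. The Hormad1 window was 68% G and C, against a median of 52.4% over all windows, and the shares were not adjusted for this. Of the 8 member genes with a window in the RefSeq table, all but Rad21, only Hormad1 held GGCGGGAA, and Hormad1 and Stag3 held CACGTG. Only these exact letters were searched, so a window without them may still hold a variant of such a site.

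Hormad2 had 3 models on the minus strand of chromosome 11, with 3 starts, the most of the 9 genes, and 3 ends, as many as Rad21. The RefSeq model (NM_029458, 4246386 to 4341085) had 11 exons and 1343 nt. Its intron 10, of 61923 bp, separated the last exon from the rest of the gene. CUFF.3220.3 began 183 nt upstream of the RefSeq start with another splice site in its first exon. It kept exons 2 to 10 and then ended in an exon of 823 nt within the long intron, 54416 nt before the RefSeq end. At 1861 nt it was the longest spliced model of the gene.

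CUFF.3220.1 covered exons 8 to 11 of Hormad2. It began 27138 nt downstream of the RefSeq start, in an exon of 27 nt that was not in the RefSeq model. It had 5 exons and 1296 nt. Its copy of exon 9 was 149 nt against 152 nt, its 5′ edge lying 3 nt further in. It crossed the long intron, and its last exon of 798 nt reached 514 nt past the RefSeq end. The RefSeq span of Hormad2 was free of close neighbours, with 39785 bp to Mtmr3 upstream and 73868 bp to Lif downstream.

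**Figure D2:**
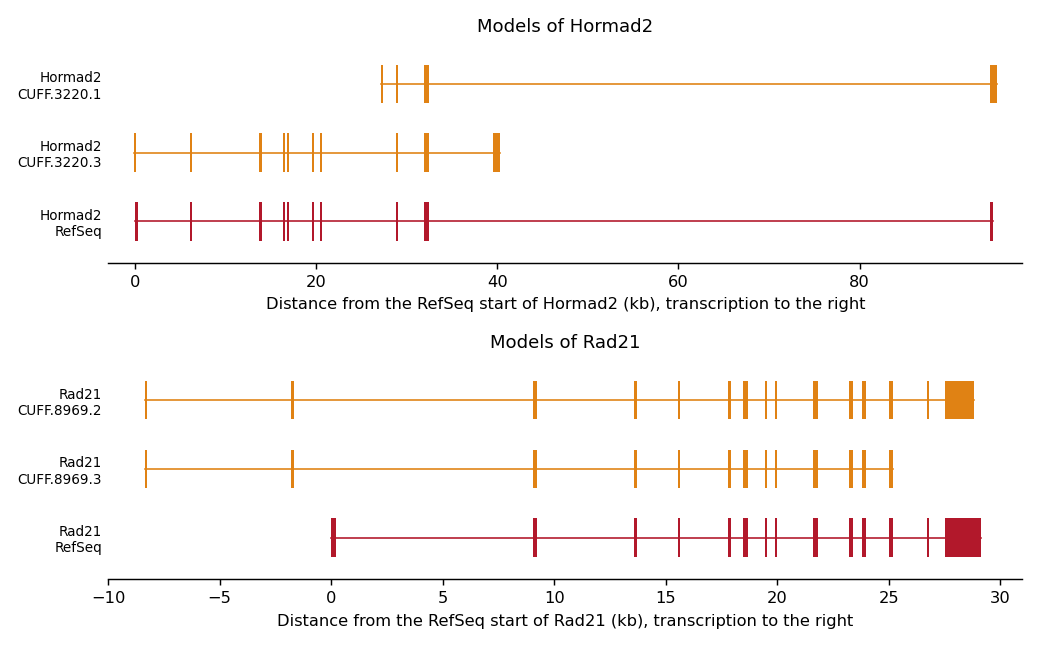
Exons (blocks) and introns (lines) of the models of Hormad2 and Rad21, in kb from each RefSeq start. CUFF models are orange and RefSeq models red. In Hormad2, CUFF.3220.3 stops 54416 nt before the RefSeq end, and in Rad21 both CUFF models start 8348 nt upstream.

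Rec8, the meiotic kleisin, was the most compact gene of the set. Its 1 model (NM_020002) ran from 56237003 to 56244232 on the plus strand of chromosome 14, a span of 7230 bp at the 32.3rd percentile. Into this span fell 20 exons, at the 89.9th percentile, and 2055 nt of spliced sequence. Its longest intron was 1534 bp and its last exon 120 nt, at the 4.22nd percentile. The end of Rec8 faced that of Ipo4, an importin gene, with 233 bp between them. Upstream, Irf9 lay 8135 bp away on the same strand.

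Smc1b, the meiotic SMC1, had 2 models on the minus strand of chromosome 15. The RefSeq model (NM_080470) lay from 84895119 to 84962387, with 25 exons and 4040 nt. CUFF.9490.2 had the same 24 introns and differed from it at the ends alone. It began 71 nt further upstream and ended 255 nt earlier, so that its last exon was 162 nt against 417 nt in the RefSeq model. Downstream, the end of Fam118a faced that of Smc1b across 1858 bp.

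Stag3, the meiotic STAG protein gene, had 34 exons, the most of the 9 genes, at the 97.6th percentile. Its 1 model (NM_016964) lay from 138721737 to 138753621 on the plus strand of chromosome 5, with 4228 nt and a last exon of 358 nt. An unnamed single-exon model of 1495 nt on the same strand, coded XX, lay 4726 bp past its end. Upstream, Gpc2, a glypican gene coded XX, faced it with 571 bp between the starts. The next named gene downstream, Zfp157, lay 129082 bp away.

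Rad21, the mitotic kleisin, was the 1 mitotic cohesin gene with CUFF models. Its RefSeq model (NM_009009) lay from 51794150 to 51823306 on the minus strand of chromosome 15, with 14 exons and 3605 nt. Both CUFF models began 8348 nt upstream of the RefSeq start, at 51831654, with first exons of 49 and 132 nt in place of the RefSeq first exon of 214 nt. Both then joined RefSeq exon 2. CUFF.8969.2 kept all later exons and ended 324 nt before the RefSeq end, with a last exon of 1320 nt against 1644 nt. CUFF.8969.3 ended 10 nt into intron 12, 3968 nt before the RefSeq end. From the far start, an unnamed single-exon model of 5160 nt, coded XX, lay 2295 bp away on the other strand. The nearest named genes were distant, with Aard 48346 bp upstream and Utp23 77981 bp downstream of the RefSeq model of Rad21.

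Smc1a and Smc3, the mitotic SMC subunits, had 1 model each. Smc1a (NM_019710) lay on the plus strand of X from 148450971 to 148496516, with 25 exons, 3970 nt and a last exon of 248 nt. Its next gene downstream was Iqsec2, 82294 bp away. Smc3 (NM_007790) lay on the plus strand of chromosome 19 from 53674886 to 53720321, with 29 exons, 4851 nt and a last exon of 1125 nt. Smc3 had no named gene within 31474 bp downstream, where Rbm20 began, or 59073 bp upstream, where Dusp5 ended.

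Meiotic and mitotic cohesin genes overlapped in all 5 measures taken: spliced length, exon number, last exon and longest intron of the longest model, and the span over all models of a gene. Spliced lengths were 2055 nt for Rec8, 4040 nt for Smc1b and 4228 nt for Stag3, against 3605 nt for Rad21, 3970 nt for Smc1a and 4851 nt for Smc3. The medians were 4040 and 3970 nt, and the median of RefSeq genes was 2359 nt. The sign of the difference between the medians turned when Smc1b, Stag3, Rad21 or Smc1a was left out, with values between -922.5 and -188 nt. Exon numbers were 20, 25 and 34 in the meiotic genes, against 14, 25 and 29 in the mitotic genes. Both medians were 25, against 6 for RefSeq genes, so both classes had many exons for a mouse gene. With 3 genes against 3 an exact permutation test cannot give a p below 0.1, and genes are not replicates, so the classes were described and not tested.

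By median, last exons were shorter in the meiotic cohesin genes, but within the SMC1 pair the RefSeq model of the meiotic gene had the longer one. Last exons were 120 nt in Rec8, 358 nt in Stag3 and 417 nt in Smc1b, against 248 nt in Smc1a, 1125 nt in Smc3 and 1644 nt in Rad21. The medians were 358 and 1125 nt, a difference of -767 nt, and the median of RefSeq genes was 1010 nt. Without Rad21 the difference was -328.5 nt. All 3 meiotic cohesin genes thus lay below the RefSeq median, as did Smc1a. RefSeq last exons were also short in Stra8 (241 nt), Hormad1 (291 nt) and Hormad2 (284 nt), while the CUFF models of Hormad2 ended in exons of 798 and 823 nt. The CUFF models of Rad21 ended in exons of 1320 and 160 nt, and that of Smc1b in 162 nt, shorter than the 248 nt of Smc1a. Spans were 7230 bp for Rec8, 31885 bp for Stag3 and 67340 bp for Smc1b, on both sides of 37505 bp for Rad21, 45436 bp for Smc3 and 45546 bp for Smc1a. The median difference was -13551 bp. It was 4176.5 bp without Rec8, -25878.5 bp without Smc1b and -8151 bp without Stag3. Longest introns were 1534, 6043 and 14354 bp in the meiotic genes and 8843, 10810 and 12256 bp in the mitotic genes, a median difference of -4767 bp that was -611.5 bp without Rec8 and -2866 bp without Stag3.

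**Figure D3:**
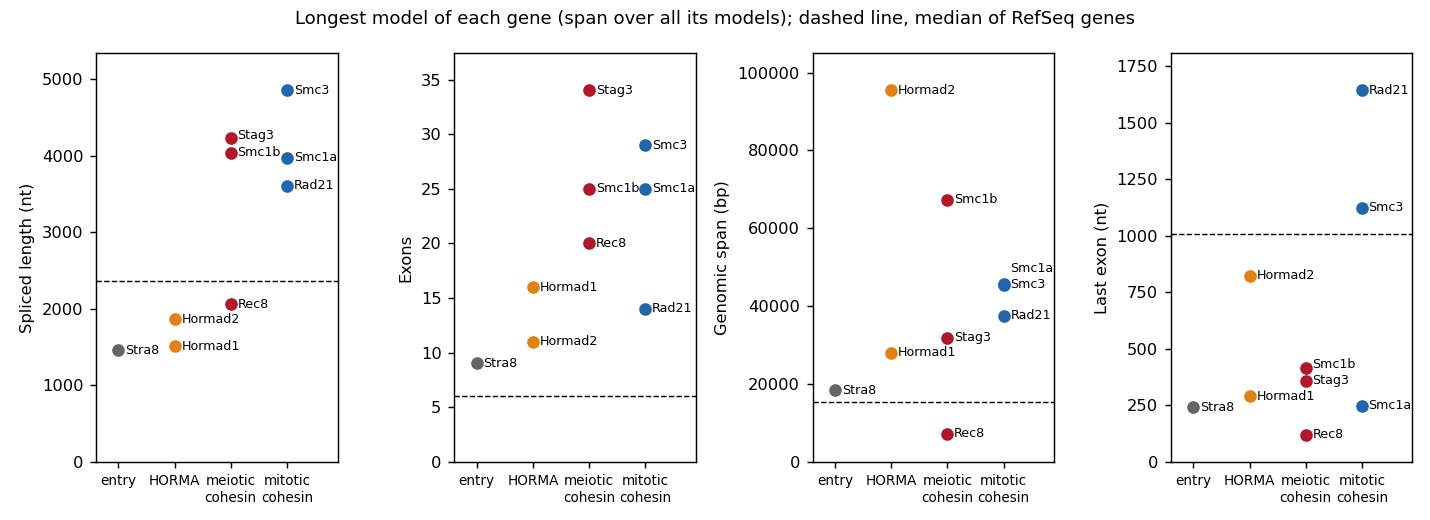
Spliced length, exon number, genomic span and last exon length of each of the 9 genes, by role, on linear axes. Spans cover all models of a gene, and the other values are of its longest model. Points are genes, and the dashed line is the median of 22421 RefSeq genes. Meiotic and mitotic cohesin genes overlap in all 4 panels, and the last exons of Rec8, Stag3 and Smc1b lie between 120 and 417 nt.

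Smc1b and Smc1a shared their exon plan almost completely. Each RefSeq model had 25 exons, and 22 of the 23 internal exons had the same length at the same place. The run from exon 2 to exon 18 was equal in all 17 exons, 2753 nt in all, beginning 189, 113, 204, 239 and 259 nt. Exon 19 was 96 nt in Smc1b and 111 nt in Smc1a, a difference of -15 nt, which is a multiple of 3. The end exons differed: the first was 129 nt in Smc1b and 213 nt in Smc1a, and the last 417 and 248 nt. Introns did not keep their size, with 63229 bp in all in Smc1b and 41576 bp in Smc1a.

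No other RefSeq gene had an exon-length run of this kind with Smc1b. The next longest run that Smc1b shared with any of 17850 genes with internal exons was 3 exons. Smc3, which belongs to the same protein family, shared no run longer than 1 exon with Smc1b or with Smc1a. These comparisons of exon lengths were chosen after the lengths had been seen.

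Hormad1 and Hormad2 shared the exons of the middle of the gene. Exons 4 to 9 of both RefSeq models measured 64, 37, 21, 27, 68 and 152 nt, and no other RefSeq gene had this run. Exon 3 differed by 3 nt (145 nt in Hormad1, 142 nt in Hormad2) and exon 10 by -6 nt (248 and 254 nt). After exon 10, Hormad1 had 6 more exons and Hormad2 had 1. The 21 nt exon left out by CUFF.16852.2 of Hormad1 is exon 6 of this run, and Hormad2 models that cross it, RefSeq and CUFF.3220.3, kept it.

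Stag3 and its mitotic relatives showed the same in part, and the kleisins did not. Of the 32 internal exons of Stag3, 19 matched internal exons of Stag1 in order, with a longest run of 10 (exons 5 to 14 in both). With Stag2 there were 18 matches and a longest run of 9. Stag1 and Stag2, the mitotic genes, had 24 matches and a run of 14. Rec8 and Rad21, both kleisins, had 1 match, of 107 nt, a length that 1093 other RefSeq genes also have among their internal exons. The longest run of Rec8 with any gene was 3 exons, with Tasp1, the gene of a protease and not of a kleisin.

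**Figure D4:**
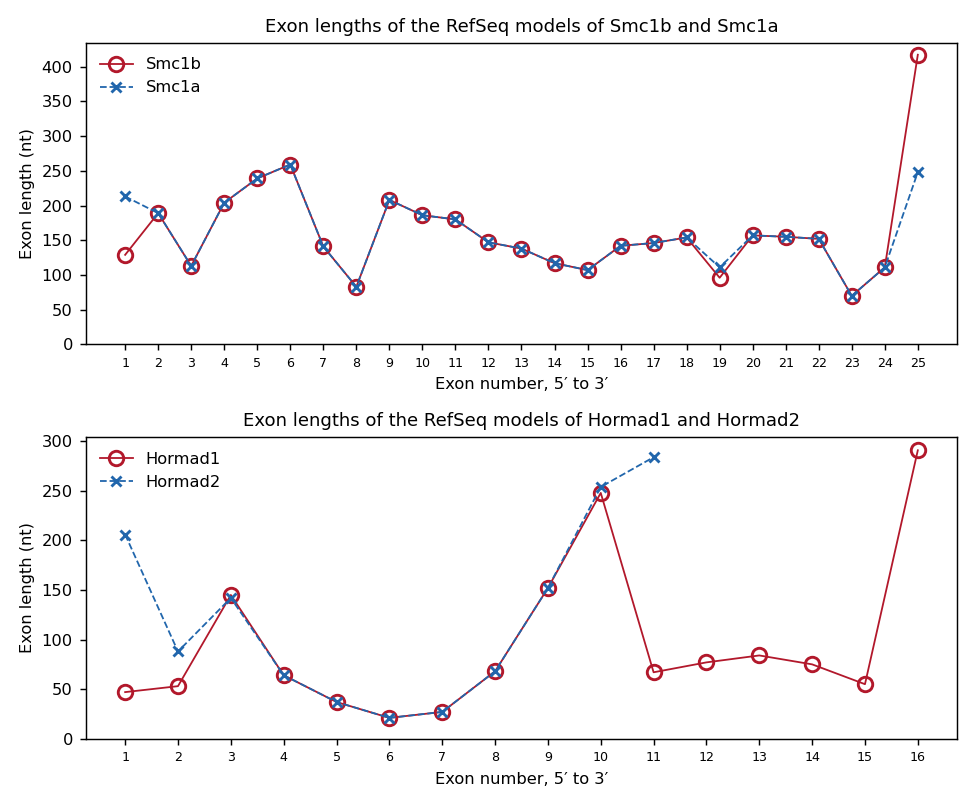
Exon length in nt by exon number in the RefSeq models of Smc1b and Smc1a (upper panel) and of Hormad1 and Hormad2 (lower panel). Circles are Smc1b and Hormad1, and crosses are Smc1a and Hormad2. Circles and crosses coincide at exons 2 to 18 of the SMC1 genes, part at exon 19 (96 and 111 nt), and coincide at exons 4 to 9 of the HORMA genes.

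Smc1b and Smc1a also shared the kind of neighbour they face. The start of Smc1b faced that of Ribc2 on the other strand, 142 bp away from the RefSeq start and 71 bp away from the start of CUFF.9490.2. The start of Smc1a faced that of Ribc1, 133 bp away. Ribc1 and Ribc2 are paralogs named for an RIB43A domain, a protein family of ciliary and flagellar microtubules. Facing starts within 500 bp were thus found for 2 of the 9 genes (22.2%), against 11.3% of all RefSeq genes and 16.4% of those coded other than XX, so the count lay near the background. Among RefSeq genes with such a partner the median distance was 133 bp (quartiles 73 and 229 bp). Stag3 and Gpc2, with starts 572 bp apart, lay just outside the limit.

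**Figure D5:**
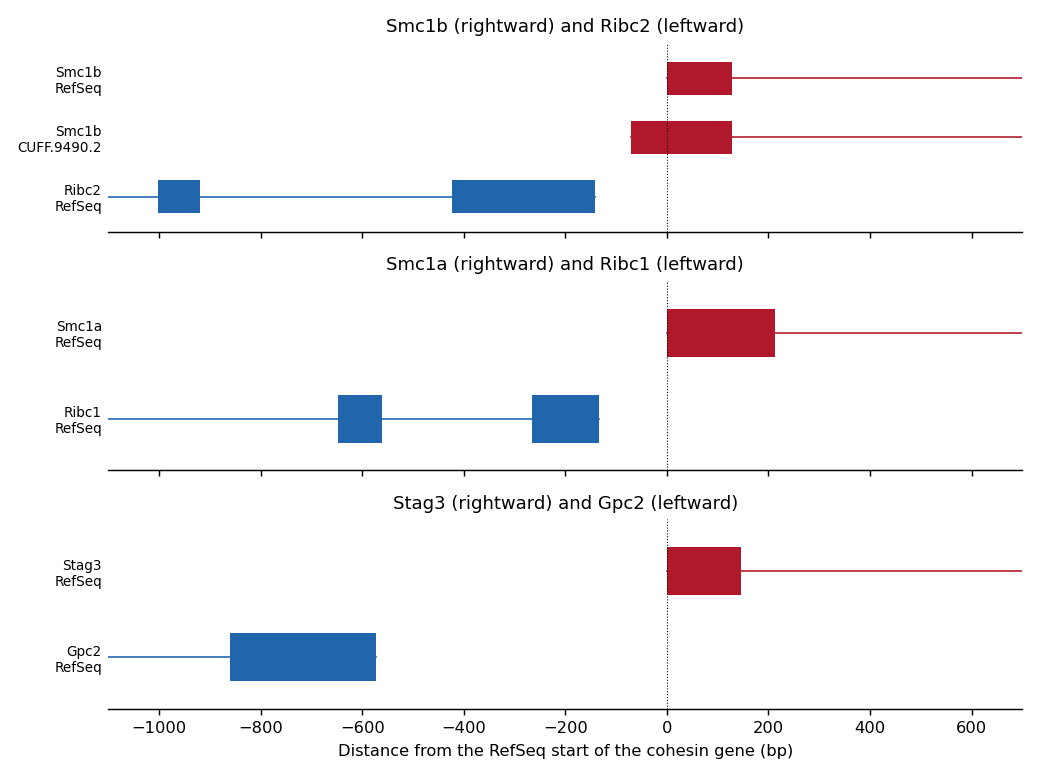
Exons (blocks) near the starts of Smc1b, Smc1a and Stag3 (red) and of the genes that face them (blue), in bp from the RefSeq start of the cohesin gene, at 0. The RefSeq starts lie 142 bp apart for Smc1b and Ribc2, 133 bp for Smc1a and Ribc1, and 572 bp for Stag3 and Gpc2.

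The bases between the facing starts are printed because each lies upstream of both starts. Both are RefSeq's in GRCm38.p6, read in the direction of the cohesin gene: 141 bases before Smc1b, chr15:85131958-85132098, minus strand, and 132 bases before Smc1a, chrX:152016296-152016427, plus strand. Capitals mark, in Smc1b, GTTGC and GCAAC with 3 bases between them, the letters of an X-box, which RFX factors are known to bind, and in Smc1a, ATTGG.
Smc1b: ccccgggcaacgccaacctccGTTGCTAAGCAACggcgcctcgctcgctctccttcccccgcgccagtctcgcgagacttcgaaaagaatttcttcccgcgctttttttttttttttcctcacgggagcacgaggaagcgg
Smc1a: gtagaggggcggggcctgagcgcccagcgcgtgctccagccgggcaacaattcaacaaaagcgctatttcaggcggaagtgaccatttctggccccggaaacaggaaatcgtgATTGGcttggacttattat
CUFF.9490.2 began 71 nt upstream of the RefSeq start of Smc1b, so its first exon reaches into the stretch printed for that gene. The X-box letters lay 120 to 108 bases before the RefSeq start, and 68 of 32851 windows (0.207%) held them. No other member window held them. This pattern was searched after the sequence had been read.

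The 250 bases before the Stag3 start are shown because Stag3 shares CACGTG with Hormad1. The windows of Rec8, Hormad2 and Smc3 are not printed. They are RefSeq's in GRCm38.p6, chr5:138280259-138280508, plus strand, with CACGTG and CCAAT in capitals.
Stag3: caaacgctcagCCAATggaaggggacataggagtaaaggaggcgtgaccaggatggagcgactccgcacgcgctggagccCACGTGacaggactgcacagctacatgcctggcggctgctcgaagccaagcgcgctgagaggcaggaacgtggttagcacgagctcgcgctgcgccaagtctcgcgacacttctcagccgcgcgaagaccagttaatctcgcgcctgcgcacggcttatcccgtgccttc
CACGTG lay 170 bases before the Stag3 start and CCAAT 239 bases before it. This window held 26 CpG dinucleotides, as did that of Smc3, against 25 in Smc1b, 19 in Hormad1, 16 in Smc1a, 10 in Rec8 and Hormad2 and 5 in Stra8. The median of all windows was 6, so Stra8 alone fell below it.

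Other motifs were searched in the same 8 windows. AACNG, the core letters bound by MYB factors such as A-MYB, was in all 8, and in 74.2% of all windows. The longer AACNGTT was found for Smc1a alone, 152 bases before its start, and in 3.8% of all windows. CNCCTCAG, the letters bound by STRA8 with MEIOSIN in mouse, was found for Hormad2 alone, 109 bases before its RefSeq start on the other strand. It was in 6.42% of all windows. CUFF.3220.3 began 183 nt upstream of the RefSeq start of Hormad2, so by distance these letters lie within its first exon and not upstream of it. CCAAT was found for 5 of the 8, Stra8, Rec8, Smc1b, Stag3 and Smc1a, and in 33.8% of all windows. TATAAA (12.4% of all windows), TGACGTCA (1.55%) and TGACGT (6.47%) were found for none of the 8. Both strands were searched, AACNG lies within AACNGTT and TGACGT within TGACGTCA.

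Counts of starts and ends among the 9 genes lay between the shares of all RefSeq genes and of those coded other than XX, or just above them. All 9 had models with a code other than XX, against 62.3% of RefSeq genes. No source used here explains the codes. More than 1 start was found for 3 of the 9 (33.3%), against 26.6% of RefSeq genes and 35.8% of those coded other than XX. More than 1 end was found for 3 of the 9, against 23% and 32.4%. In each case these were Hormad2, Smc1b and Rad21, the 3 genes with CUFF models under their symbols. Such models were found for 28.5% of RefSeq genes and 39.4% of those coded other than XX. No member could have more than 1 start or end among RefSeq-derived models, as each had only 1 such model.

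Other genes that load, release, protect or accompany cohesin, or act at meiotic entry, were taken from 4 lists with 37 symbols. Of these, 36 were found, Rec114 under the older name 2410076I21Rik and Gm4969, the gene of MEIOSIN, not. All 36 had a code other than XX, against 62.3% of RefSeq genes. Their median was 13 exons and 3797 nt, against 6 exons and 2359 nt for RefSeq genes. More than 1 start was found for 16 (44.4%), more than 1 end for 13 (36.1%) and a facing start within 500 bp for 10 (27.8%). The shares among all RefSeq genes were 26.6%, 23% and 11.3%, and among those coded other than XX 35.8%, 32.4% and 16.4%. Starts and ends were counted over RefSeq-derived and CUFF models together. A CUFF model was found for 17 of the 36 (47.2%), against 28.5% and 39.4%.

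Among the cohesin regulators, Nipbl, which loads the ring, had 2 starts spread over 71872 nt and 2 ends. Its partner Mau2 had 2 starts and 2 ends, and faced Sugp1 at 79 bp. Wapal, which opens the ring, and Pds5a, which binds WAPL, had 2 starts and 2 ends each, and Pds5b had 1 start and 2 ends. Sgol2, the shugoshin that guards centromeric REC8 in mouse meiosis, had 2 starts spread over 10634 nt and 3 ends. Espl1, the protease separase, had 2 starts over 167 nt, and its inhibitor Pttg1 2 starts over 267 nt. Cdca5, the gene of sororin, faced Zfpl1 at 206 bp, and Sgol1 and Ctcf each faced an unnamed CUFF model, at 161 and 231 bp. Ctcf, whose protein halts cohesin on DNA, had 2 starts and 2 ends. The STAG genes Stag1 (2 starts, 3 ends) and Stag2 (3 starts, 2 ends) were both more varied than Stag3, whose 1 model gave 1 of each.

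In the list of meiotic entry and axis partners, 5 genes had more than 1 start and 4 had a CUFF model. Several starts can thus come from RefSeq-derived models alone. The 2 listed retinoic acid receptors varied at their starts alone. Rarg had 3 starts over 11131 nt and Rara 3 over 22775 nt, each with 1 end. Cyp26b1, which breaks down retinoic acid, had 3 starts over 4948 nt and 1 end. Gm1564, an older name of Meioc, whose protein prolongs meiotic prophase in mouse, had 2 starts and 2 ends, and the axis gene Sycp2 had 5 and 4. Trip13, the ATPase that removes HORMA proteins from chromosomes, faced Brd9 at 71 bp, and Rec114 an unnamed CUFF model at 86 bp. Of the other SMC complexes, Smc6 had 2 starts and 2 ends and faced Gen1 at 99 bp, and Smc2 had 1 start and 2 ends. The condensin genes Smc4 and Ncaph2 faced Ift80 at 402 bp and Lmf2 at 63 bp, and Ncaph an unnamed CUFF model at 10 bp.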

How the data were processed

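CAGE and PAS-Seq libraries came from wild-type mouse testes, 1 per group. The deposited table analysed here, a BED file of 12 columns without a header, gave transcript models for the whole series, with positions and exon lengths in mm9 and no level per library. The submitters' processing notes name mm9 and TopHat2, version 2.0.4. How models were assembled, how the libraries set their starts and ends, and what the codes mean is stated in no source used here, so a model's start or end need not have CAGE or PAS-Seq support.

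Models were taken by symbol. Starts or ends within 50 nt counted as 1. Facing starts lay 1 to 500 bp apart, by start-to-start distance. The background was the 22421 RefSeq symbols on 1 chromosome and strand, 5 others being left out. Percentiles count ties as a mid-rank. Promoter windows were RefSeq's for GRCm38.p6, and 8 of 9 members matched. All 9 members were named, with their neighbours and the listed genes that had more than 1 start, more than 1 end or a facing start. The members and lists were chosen with earlier results of these data known. No test was run, and the position rules were checked on made-up models. Python 3.11.15, NumPy 2.4.6 and Matplotlib 3.10.9 were used. Alternatives changed the tolerance, the window, the kinds of model and the genes included.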

Additional observations from a re-analysis of the deposited data

How the results depend on the processing

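No library entered any comparison, so there were no samples to pair, and no result came from a test. The median differences between meiotic and mitotic cohesin genes rest on 3 genes against 3, and leaving out each gene in turn moved the spliced length difference of 70 nt between -922.5 and 252.5 nt, the exon difference of 0 between -2.5 and 5.5, and the span difference between -25878.5 and 4176.5 bp. The last exon difference kept its sign, between -1026.5 and -328.5 nt, as did the longest intron difference, between -7021.5 and -611.5 bp. These medians do not pair paralogs. Within the SMC1 pair the RefSeq last exon was longer in Smc1b (417 nt) than in Smc1a (248 nt), but that of CUFF.9490.2 of Smc1b was shorter (162 nt). The difference in mean starts, 0, ran between -0.333 and 0.333, and that in mean ends, -0.333, between -0.667 and 0.333, since Rad21 alone gave the mitotic genes extra ends. With the mean over all models of a gene, the spliced length difference turned to -22 nt and the last exon difference was -752 nt. With starts within 100 nt counted as 1, the start difference was -0.333, because the starts of Smc1b lie 71 nt apart. With RefSeq-derived models only, 0 of the 9 genes had more than 1 start or more than 1 end, and the difference in ends was 0. This was fixed beforehand, since each gene had 1 such model. Counting CUFF models of any name, chosen after seeing the data, gave 4 genes with a CUFF model in place of 3, the fourth being Hormad1, and counting all overlapping models gave 4 genes with more than 1 start and 4 with more than 1 end. With windows of 200 and 1000 bp, 2 and 3 genes had a facing start, the third being Stag3. No share of all RefSeq genes was set beside the counts under these changed settings, so they cannot be read against a background. Depth is unknown, so a gene with 1 start may have others not assembled.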

Other observations

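The facing partners of the SMC1 genes also shared exon lengths, but far fewer than the SMC1 genes did. Of the 5 internal exons of Ribc2 and the 6 of Ribc1, 3 matched in order, as 1 run of 82, 345 and 119 nt, at exons 2 to 4 of Ribc2 and 4 to 6 of Ribc1. No other RefSeq gene of the table had this run, but runs of 3 exons also occurred elsewhere, as between Rec8 and Tasp1. The comparison was chosen after the lengths had been seen.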
